A study of Homo sapiens with 9 samples.

Results

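The MHC class I genes HLA-B, HLA-C, HLA-E, HLA-F and HLA-G, the gene B2M and the gene NLRC5 were followed on every array of the series. All probes that carry 1 of these 7 gene names were taken, which gave 13 of the 58201 probes on the array, and all 13 passed the filter on dim probes, among 26155 that did. One of the 13, the downstream NLRC5 probe, passed through T47D-PA6 alone, so it had to be higher there, and counts are given over the other 12. RNA came from 3 stable lines of T47D, an established human luminal breast cancer cell line, with 3 single-color arrays for each. T47D-VC1 carries the empty vector, T47D-PA5 a truncated form of the long noncoding RNA PTH-AS, and T47D-PA6 the full-length form. PTH-AS is transcribed downstream of the parathyroid hormone gene, and its own level was not read here. The study set the full-length line against both others so that effects of transferring a gene into the cells could be told from those of PTH-AS. Each group is 1 line. The paper describes drug selection, with G418 or puromycin, for its stable clones, vector controls included. Those with PTH-AS were obtained under G418 and also picked for high expression, so a line and what it carries cannot be told apart. Nothing says that the arrays of a line came from separate cultures, so the p-values measure only the spread between these arrays.

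The class I heavy chains hold short peptides at the cell surface, where CD8+ T cells and natural killer cells read them. HLA-B and HLA-C are classical class I molecules, and HLA-E, HLA-F and HLA-G are the nonclassical ones, with few variants among people. B2M encodes β2-microglobulin, the small subunit that each of these heavy chains needs to fold. NLRC5 encodes a transactivator of class I promoters, and interferons raise the transcription of all these genes.

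The labelled cell type was checked on its markers. All 8 luminal markers (ESR1, PGR, GATA3, FOXA1, EPCAM, KRT8, KRT18 and KRT19) were well above background on all 9 arrays, with summed signals of 475300 to 512200 in T47D-VC1, 498000 to 514000 in T47D-PA5 and 485400 to 504100 in T47D-PA6. These sums rest mostly on KRT19, with mean signals of 301400, 301400 and 292600 in the same order, and say little of dimmer markers. PGR had means of 15080, 11590 and 7201 and GATA3 of 24520, 24240 and 27720, and their part in the results was not tested. The leukocyte list summed to 479.7 to 561.2, 421.2 to 840 and 583.1 to 735.3 in the same order, and its markers CD3E and MS4A1 were not well above background on any array. CD14, a monocyte marker in that list, had mean signals of 47.8, 115 and 167, and its part in the results was not tested. Each array had 44.0% to 48.0% of its probes well above background, and saturation was not seen. Replicate 1 of each line was on 1 slide scanned in an earlier run, and the other 6 arrays were on a pair of slides scanned in a later run. Of that pair, 1 slide held replicate 2 of T47D-VC1 and of T47D-PA5 and no T47D-PA6 array. The other held T47D-PA6 replicates 2 and 3 with replicate 3 of both other lines, so slide and line were not balanced.

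The probes are short stretches of the transcripts, and their letters show which of them can be read as separate measures. HLA-B had 3 probes and HLA-C, HLA-E, HLA-F and NLRC5 had 2 each. Positions of probes are those of hg19 in the scanner files. The 3 probes below sit on the same stretch of chromosome 6 at the end of the HLA-B transcript, in its 3′ untranslated region, on the minus strand, and 30 bases of each are shown with the base that differs in capitals.
HLA-B first tail probe, chr6:31321663-31321722: ctggaaGttgagagagcaaataaagacctg
HLA-B second tail probe, chr6:31321653-31321712: ctggaaTttgagagagcaaataaagacctg
HLA-C-named probe, chr6:31321644-31321703: ctggaaGttgagagagcaaataaagacctg
The first and the second tail probe overlapped by 50 bases with 1 difference, G37T, counted from 1 at the 5′ end of the first probe. The probe named for HLA-C matched the first tail probe over 41 bases with 0 differences, and the files place it at HLA-B, although its source record is an HLA-C one. So these 3 probes share their target stretch and are not independent of each other, and the HLA-C name of the last of them is uncertain.

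The remaining probes did not share a run of 20 bases with another member. The HLA-B exon probe, which the files do not place in the genome, and both HLA-F probes are coding sequence, and they are shown whole because the comparison of probes within a gene rests on them.
HLA-B exon probe: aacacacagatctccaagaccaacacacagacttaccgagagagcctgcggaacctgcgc
HLA-F upstream probe, chr6:29692114-29692173: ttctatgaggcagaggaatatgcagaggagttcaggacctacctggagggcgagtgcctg
HLA-F downstream probe, chr6:29693280-29693338: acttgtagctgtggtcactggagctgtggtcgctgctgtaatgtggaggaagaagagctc
B2M, chr15:45007773-45007832: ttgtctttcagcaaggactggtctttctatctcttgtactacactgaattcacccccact
HLA-E had a proximal and a distal probe in the 3′ part of its transcript, on the plus strand, and the first 30 bases of the proximal one are given.
HLA-E proximal probe, chr6:30460729-30460788: cttcctcacactgacctgtgttccttccct
The second HLA-C probe (chr6:31236617-31236676), the HLA-G probe (chr6:29798694-29798753) and the NLRC5 probes (chr16:57077428-57077487 upstream, chr16:57116822-57116881 downstream) are placed at those genes. Class I genes are alike over long stretches, and how far a probe also binds the transcripts of other class I genes was not tested.

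Signals are normalized, background-subtracted fluorescence in arbitrary units, and a difference is given on the log2 scale with its standard error (SE). Differences were fitted by limma, with Benjamini-Hochberg adjustment of the p-values across the 26155 tested probes, and n is 3 arrays for each line throughout. A probe is called when its adjusted p is under 0.05. Levels of different probes are not compared.

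In T47D-PA6 over T47D-VC1, 11 of the 12 probes above background on each of the 9 arrays were called higher and 0 lower, where 4.44% of all tested probes were called higher and 6.13% lower. The 12 include the overlapping probes at the end of HLA-B, so they are not 12 separate measures. On 11 of the 12 every array of T47D-PA6 lay above every array of T47D-VC1, which held for 12.2% of all tested probes. The median log2 difference of the 12 was 1.27, with a range of −0.01 to 2.48, and the median of all tested probes was −0.05. With the remaining probe at its lower bound the median of the 13 was 1.22. The distal HLA-E probe was the one that was not called.

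**Figure D1:**
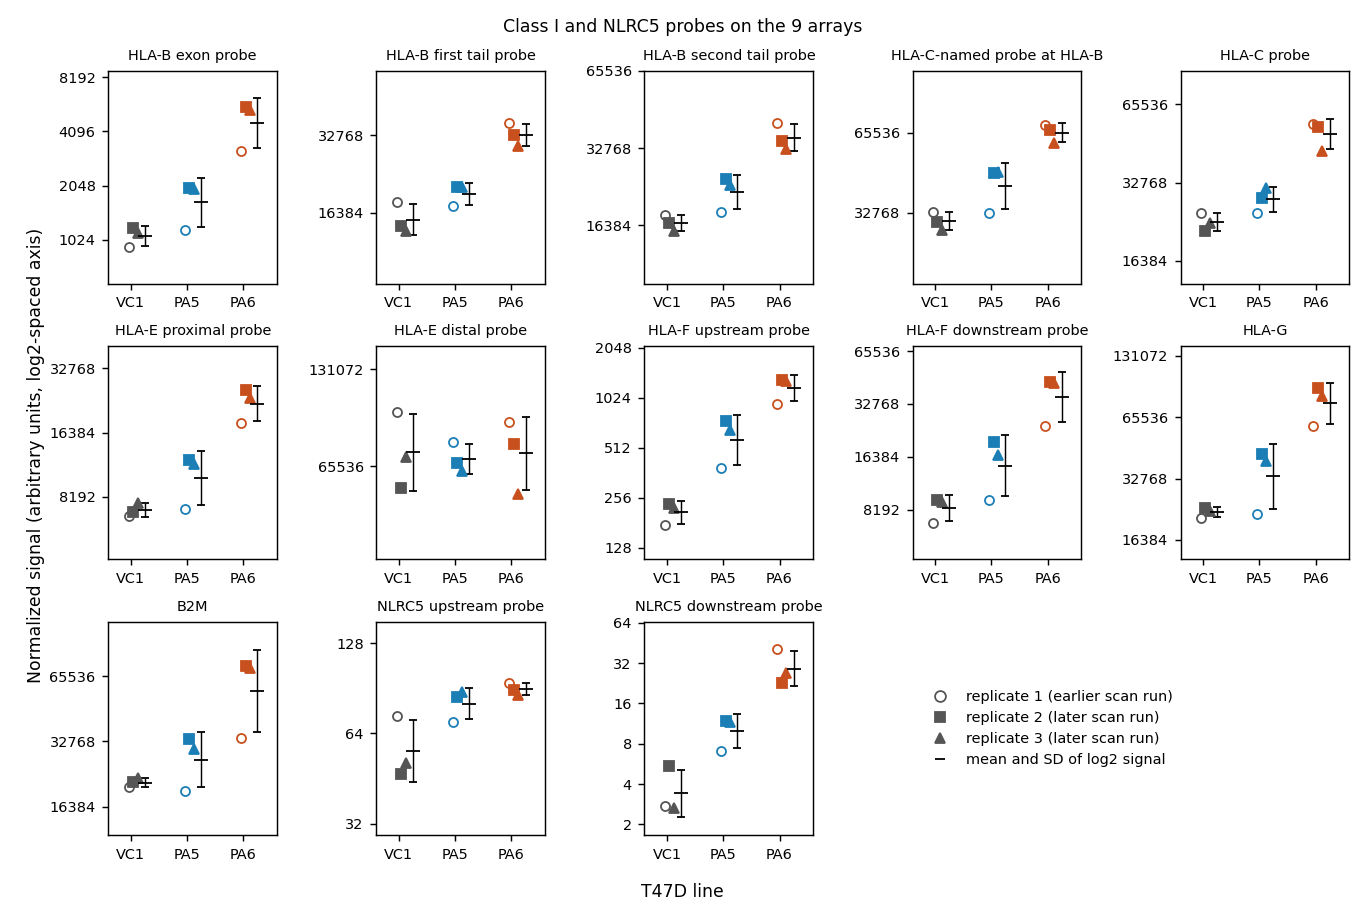
Normalized signal (arbitrary units, log2-spaced axis, own range in each panel) of the 13 probes on the 9 arrays, by line. Circles, squares and triangles are replicates 1, 2 and 3, and the bar gives the mean and SD of the log2 signal of the 3 arrays. The T47D-PA6 arrays lie above all T47D-VC1 arrays in every panel except that of the distal HLA-E probe.

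HLA-B presents peptides to CD8+ T cells and is a ligand of killer cell receptors. Its exon probe read 933.5, 1197 and 1120 in T47D-VC1, 1156, 1991 and 1955 in T47D-PA5, and 3168, 5564 and 5412 in T47D-PA6. The T47D-PA6 arrays stood clear of the rest, while T47D-PA5 replicate 1 lay within the T47D-VC1 range. The log2 difference of T47D-PA6 over T47D-VC1 was 2.08 (SE 0.27, limma adjusted p = 0.00339). The first tail probe read 18040, 14610 and 13950 in T47D-VC1, 17370, 20620 and 20570 in T47D-PA5, and 36420, 32720 and 29780 in T47D-PA6, and the difference was 1.09 (SE 0.14, limma adjusted p = 0.00288). The second tail probe gave 1.11 (SE 0.14, limma adjusted p = 0.00326).

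HLA-C presents peptides too and is the main ligand of inhibitory killer cell receptors. The probe at the HLA-C locus read 25120, 21390 and 22850 in T47D-VC1, 25060, 28640 and 31250 in T47D-PA5, and 55200, 53760 and 43200 in T47D-PA6. All T47D-PA6 arrays were above all others, and T47D-PA5 replicate 1 was below T47D-VC1 replicate 1. The log2 difference over T47D-VC1 was 1.13 (SE 0.14, limma adjusted p = 0.00242). The probe named for HLA-C but placed at HLA-B gave 1.11 (SE 0.15, limma adjusted p = 0.00434).

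HLA-F, which is found on activated lymphocytes and binds killer cell receptors also without peptide, showed the largest differences among probes that were above background everywhere. The upstream probe read 174.6, 236.5 and 222.2 in T47D-VC1, 386.3, 738.2 and 658.7 in T47D-PA5, and 944.9, 1306 and 1291 in T47D-PA6. The 3 lines did not overlap, in the order T47D-VC1, T47D-PA5, T47D-PA6. The difference of T47D-PA6 over T47D-VC1 was 2.48 (SE 0.25, limma adjusted p = 0.0012). The downstream probe read 6838, 9297 and 9107 in T47D-VC1, 9339, 19890 and 16830 in T47D-PA5, and 24490, 43610 and 43380 in T47D-PA6, a difference of 2.11 (SE 0.32, limma adjusted p = 0.0061).

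HLA-G is best known from the placenta, where it inhibits natural killer cells. Its probe read 21050, 23520 and 22630 in T47D-VC1, 22090, 43310 and 40030 in T47D-PA5, and 59120, 91440 and 83190 in T47D-PA6. Again T47D-PA6 was apart from both lines and T47D-PA5 replicate 1 lay among the T47D-VC1 arrays. The difference over T47D-VC1 was 1.78 (SE 0.26, limma adjusted p = 0.00544).

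HLA-E presents leader peptides of other class I chains to the receptor NKG2A. Its proximal probe read 6652, 6942 and 7688 in T47D-VC1, 7183, 12170 and 11650 in T47D-PA5, and 18140, 26040 and 23840 in T47D-PA6, a difference of 1.66 over T47D-VC1 (SE 0.22, limma adjusted p = 0.00334). Its distal probe read 96550, 56080 and 69860 in T47D-VC1, 77870, 66870 and 63480 in T47D-PA5, and 89590, 76590 and 53850 in T47D-PA6. On the distal probe the 3 lines overlapped, and the difference of −0.01 had a 95% interval of −0.55 to 0.53 (limma adjusted p = 0.985). That interval lies below the difference read by the proximal probe.

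B2M read 20090, 21150 and 22160 in T47D-VC1, 19380, 33480 and 30310 in T47D-PA5, and 33800, 72850 and 71300 in T47D-PA6, each value being the mean of up to 10 spots. Its T47D-PA6 arrays were all above those of T47D-VC1, but replicate 1 was less than the others apart from them. The difference was 1.41 (SE 0.31, limma adjusted p = 0.0261), and it was 0.75 in the earlier run against 1.74 in the later. The call for B2M was lost without T47D-VC1 replicate 1, 2 or 3 or T47D-PA6 replicate 2 or 3, with adjusted p of 0.0535, 0.0749, 0.0788, 0.0909 and 0.0949.

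The NLRC5 probes were not equally informative. The upstream probe read 73.25, 46.99 and 51.06 in T47D-VC1, 70.07, 84.57 and 87.69 in T47D-PA5, and 94.22, 89.58 and 85.97 in T47D-PA6. T47D-PA6 and T47D-PA5 overlapped. T47D-PA6 lay above all T47D-VC1 arrays, and T47D-PA5 replicate 1 lay below T47D-VC1 replicate 1. The difference of T47D-PA6 over T47D-VC1 was 0.68 (SE 0.17, limma adjusted p = 0.0417), and with slide as a block in the fit it was 0.65 and no longer called (adjusted p = 0.0797). Leaving out T47D-VC1 replicate 2 or 3, T47D-PA5 replicate 2 or 3, or any T47D-PA6 array also ended this call, with adjusted p of 0.0665 to 0.14. The downstream probe was well above background on all T47D-PA6 arrays, at 40.72, 22.55 and 26.9, and on no array of the other lines. Its signal in T47D-PA6 was at least 2.33-fold higher than in T47D-VC1 and at least 2.23-fold higher than in T47D-PA5. These bounds were taken against the lowest signal well above background on the arrays of the dimmer line. Because the probe entered the tests through T47D-PA6 alone, these values are a description and support no call.

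**Figure D2:**
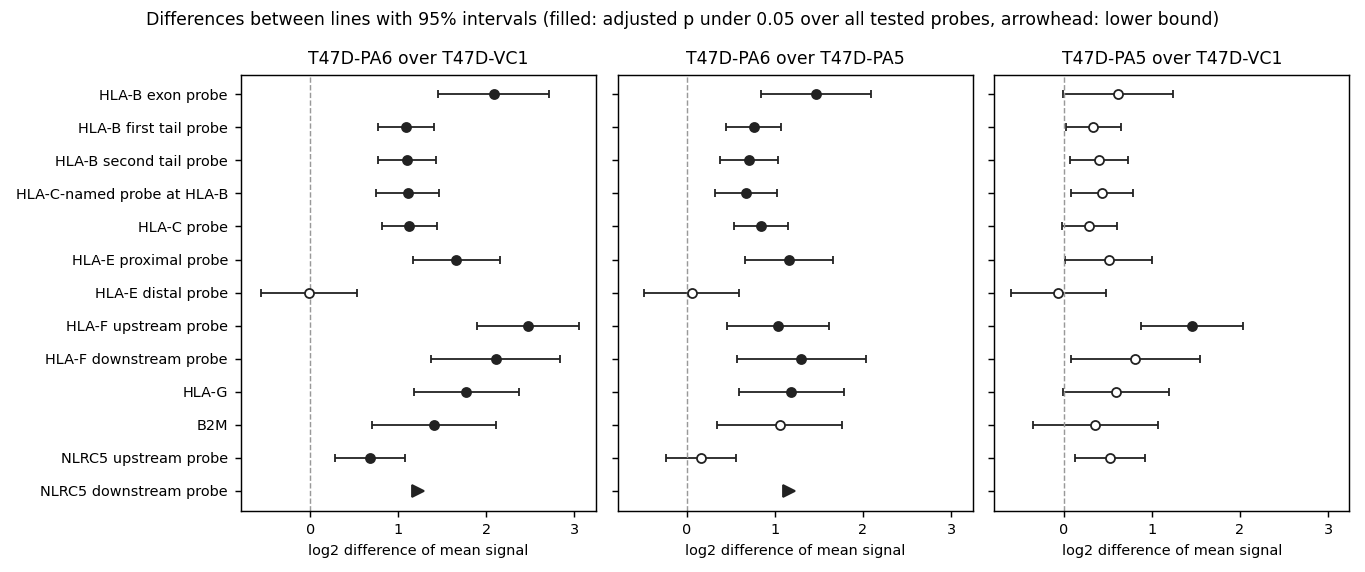
Log2 difference of mean signal with its 95% interval for each probe in the 3 comparisons, filled where the adjusted p was under 0.05. Arrowheads are lower bounds for the downstream NLRC5 probe, which has no value in T47D-PA5 over T47D-VC1 because neither line was above background. In T47D-PA6 over T47D-VC1 the HLA-F upstream probe is farthest right at 2.48 and the distal HLA-E probe sits at −0.01.

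T47D-PA6 was set against T47D-PA5 to compare the full-length with the truncated RNA. Here 9 of the 12 probes were called higher and 0 lower, beside 3.46% of all tested probes called higher and 6.45% lower. On 10 of the 12 the arrays did not overlap, T47D-PA6 above, as on 13.6% of all tested probes. The HLA-B exon probe differed by 1.47 (SE 0.27, limma adjusted p = 0.0142), the HLA-F downstream probe by 1.30 (SE 0.32, limma adjusted p = 0.0386) and HLA-G by 1.18 (SE 0.26, limma adjusted p = 0.0263). B2M differed by 1.05 (95% interval 0.34 to 1.76) and missed the threshold at an adjusted p of 0.0704, but passed it with slide as a block (1.02, adjusted p = 0.0356). The NLRC5 upstream probe differed by 0.16 (95% interval −0.23 to 0.56) and the distal HLA-E probe by 0.05 (95% interval −0.49 to 0.60). The call for the HLA-C-named probe (0.67, adjusted p = 0.0307) was lost with slide as a block (0.70, adjusted p = 0.0576). The count of calls rested on single arrays, since it fell to 1 without T47D-PA6 replicate 2, to 3 without T47D-PA6 replicate 3 and to 4 without T47D-PA5 replicate 3.

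In T47D-PA5 over T47D-VC1, 1 of the 12 probes was called higher, beside 1.29% of all tested probes, and 3 did not overlap, beside 10.7% of them. The probe called was the HLA-F upstream one, at 1.45 (SE 0.25, limma adjusted p = 0.0315). That call was lost when T47D-VC1 replicate 1, 2 or 3, T47D-PA5 replicate 2 or 3, or T47D-PA6 replicate 2 or 3 was left out, with adjusted p of 0.057 to 0.135. Among the 12 probes the median difference was 0.47, beside −0.03 for all tested probes, and 7 of the 12 had an unadjusted p under 0.05, beside 15.6% of all tested probes. These 7 include all the overlapping probes at the end of HLA-B, which are not separate measures. With slide as a block the HLA-F downstream probe was called too (adjusted p = 0.0386). HLA-G differed by 0.59 (95% interval −0.01 to 1.19), the HLA-B exon probe by 0.62 (95% interval −0.01 to 1.24) and B2M by 0.35 (95% interval −0.36 to 1.06), so these intervals hold sizes from about none to more than doubling.

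This comparison differed between the scan runs. In the earlier run, with 1 array a line, the median of the 12 probes was 0.02, and 6 of 12 were above 0. In the later run, with 2 arrays a line, the median was 0.68, all 12 were above 0, and all 12 exceeded their earlier value. In the 6 arrays of the later run alone, a setting added after seeing the data, 10 of the 12 probes were called higher, beside 10.2% of all tested probes. In the later run the means stood in the order T47D-VC1, T47D-PA5, T47D-PA6 on 11 of the 12 probes. There T47D-PA6 and T47D-PA5 were only 0.03 apart on the upstream NLRC5 probe. In the earlier run the single arrays of T47D-PA5 and T47D-VC1 differed by −0.31 to 1.15, the most on the HLA-F upstream probe. For T47D-PA6 over T47D-VC1 the medians were 1.16 in the earlier and 1.43 in the later run. Scan run and replicate 1 cannot be told apart.

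**Figure D3:**
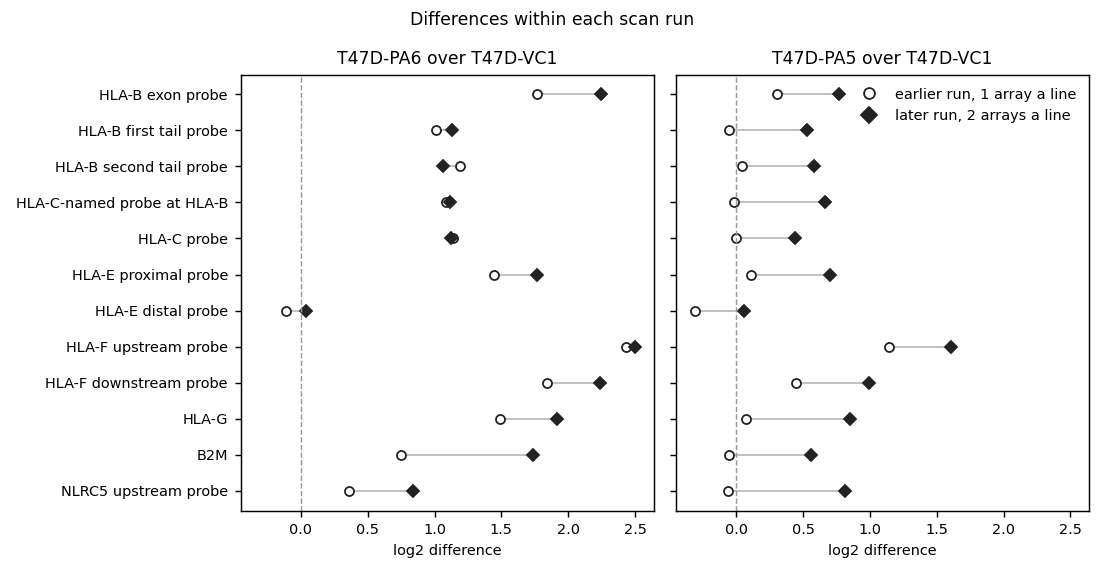
Log2 difference of each of the 12 probes above background on all arrays, within the earlier scan run (open circles, 1 array a line) and within the later one (diamonds, 2 arrays a line). T47D-PA6 over T47D-VC1 has medians of 1.16 and 1.43, and T47D-PA5 over T47D-VC1 has medians of 0.02 and 0.68.

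Probes of the same gene were then set against each other in a second fit, of the log2 signal of one probe minus that of the other on each array. It covered all 7871 pairs of tested probes of the same gene, of which 7 pairs are members, and p-values were adjusted over all pairs. For HLA-B, the exon probe exceeded the first tail probe by 0.99 in its difference of T47D-PA6 over T47D-VC1 (95% interval 0.28 to 1.71, limma adjusted p = 0.143), and the second tail probe differed from the exon probe by −0.98 (95% interval −1.66 to −0.30, limma adjusted p = 0.13). The tail probes differed from each other by 0.01 (95% interval −0.21 to 0.24), and the HLA-C probe from the HLA-C-named probe by 0.02 (95% interval −0.23 to 0.28). The HLA-C-named probe is placed at HLA-B, so that value is not read as agreement within HLA-C. Every probe of HLA-B rose, and the larger rise of the exon probe was not called in this fit, where 2.44% of all pairs were called. With slide as a block it was called against the first tail probe (0.97, adjusted p = 0.0313) and the second (−0.92, adjusted p = 0.0478), in a fit that called 2.5% of all pairs. Without T47D-PA6 replicate 1 the same 2 pairs were called too, with adjusted p of 0.0326 and 0.0162.

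For HLA-E, the proximal probe exceeded the distal by 1.67 (95% interval 0.81 to 2.54, limma adjusted p = 0.0608), a size larger than 99.4% of all same-gene pairs. With slide as a block the value was 1.69 and the pair was called (adjusted p = 0.0112), as it was without T47D-PA5 replicate 1 (adjusted p = 0.0452) or T47D-PA6 replicate 1 (adjusted p = 0.0325). In T47D-PA6 over T47D-PA5 the pair differed by 1.10 (limma adjusted p = 0.225), where 1.47% of pairs were called, and with slide as a block by 1.12 (adjusted p = 0.0396, 0.839% of pairs). How specific the distal probe is for HLA-E is uncertain, and its values are those of the probe rather than of the gene.

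The HLA-F probes differed by −0.37, downstream minus upstream, in T47D-PA6 over T47D-VC1 (95% interval −0.65 to −0.09, limma adjusted p = 0.156) and by −0.64 in T47D-PA5 over T47D-VC1 (95% interval −0.92 to −0.36, limma adjusted p = 0.113), where 0.0381% of all pairs were called. The latter pair was called without T47D-PA6 replicate 1 (adjusted p = 0.0485). The NLRC5 pair holds the downstream probe, which was below background in T47D-VC1, so its difference has no exact size and its adjusted p of 0.0215 in T47D-PA6 over T47D-VC1 is not read as a call. Under normexp background correction that pair differed by 0.21 (adjusted p = 0.394).

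**Figure D4:**
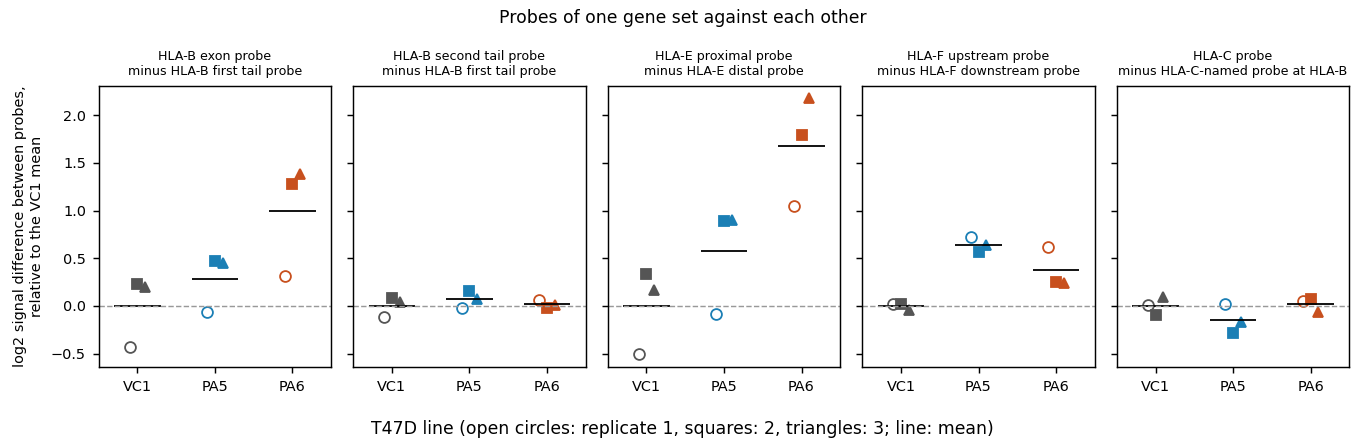
Log2 signal of one probe minus another of the same gene name on each array, relative to the mean of T47D-VC1 (dashed line at 0), with the line's mean as a bar. The pair of HLA-B tail probes and the pair named for HLA-C, of which 1 probe is placed at HLA-B, stay near 0 in all lines. In T47D-PA6 the HLA-B exon probe stands 0.99 above the first tail probe and the proximal HLA-E probe 1.67 above the distal.

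The promoters of 5 of the 7 genes were in the RefSeq table (GRCh38.p14), and HLA-E and NLRC5 are named only. A stretch of 135 bases before the start of transcription is printed for the genes whose transcripts moved together, with matches in capitals. The motifs were searched on both strands of 300 bases, from 250 before the start to 50 after: the interferon-stimulated response element core (GAAA, any 2 bases, GAAA), its shorter form GAANNGAAA (added after the promoters were seen), the CCAAT box CCAAT and the core of the cyclic AMP response element, TGACG.
B2M, chr15:44711347-44711481, plus strand: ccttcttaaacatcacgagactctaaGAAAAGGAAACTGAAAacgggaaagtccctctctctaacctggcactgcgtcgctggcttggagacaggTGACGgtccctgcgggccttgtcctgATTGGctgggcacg
HLA-B, chr6:31357215-31357349, minus strand: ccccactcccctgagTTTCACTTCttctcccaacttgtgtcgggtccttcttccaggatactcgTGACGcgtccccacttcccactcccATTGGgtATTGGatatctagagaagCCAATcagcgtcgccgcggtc
HLA-C, chr6:31272128-31272262, minus strand: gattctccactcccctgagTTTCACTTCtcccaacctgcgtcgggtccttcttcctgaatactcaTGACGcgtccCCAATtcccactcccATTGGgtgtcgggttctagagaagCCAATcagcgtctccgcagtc
HLA-F, chr6:29723264-29723398, plus strand: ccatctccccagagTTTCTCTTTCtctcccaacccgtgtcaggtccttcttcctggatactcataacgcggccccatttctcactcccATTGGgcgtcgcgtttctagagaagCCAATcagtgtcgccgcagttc
HLA-G, the third of its 3 entries, chr6:29827655-29827789, plus strand: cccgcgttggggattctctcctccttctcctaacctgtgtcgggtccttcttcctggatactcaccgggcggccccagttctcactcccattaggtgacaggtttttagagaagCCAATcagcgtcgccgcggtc
The response element core was matched once in HLA-F and in 2 overlapping places in B2M, and 3.57% of all 35116 promoters hold it. The shorter form was matched in HLA-B and HLA-C and is held by 7.66% of all promoters. Neither form was matched in HLA-G, whose probe read a log2 difference of 1.78. A CCAAT box was matched in all 5 genes (34.6% of all promoters) and TGACG in HLA-B, HLA-C and B2M (24.6%). The interferon-γ activated site TTCNNNGAA, which 7.66% of promoters hold, was not matched in any of the 5. These are matches of letters, not measured sites.

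The genes of the pathway around the members were read from lists, with 1 probe a gene, the brightest. Of 14 genes for peptide supply and loading, all were tested and in T47D-PA6 over T47D-VC1 9 were called higher and 0 lower, with a median log2 difference of 0.75 beside −0.03 for all genes tested. Over all 20092 genes read in this way, 4.74% were called higher and 5.39% lower. PSMB9 and PSMB8, catalytic subunits of the immunoproteasome, differed by 2.40 (SE 0.17, limma adjusted p = 0.000405) and 2.02 (SE 0.17, limma adjusted p = 0.000594). TAP1 and TAP2, which carry peptides into the endoplasmic reticulum, differed by 1.34 (limma adjusted p = 0.00145) and 1.40 (limma adjusted p = 0.000405). The chaperones of loading were not called, with differences of 0.19 for CALR, 0.12 for CANX, 0.08 for PDIA3 and 0.19 for TAPBP. TAPBPL, a peptide editor, was not called either, at 1.26 with a wide error (SE 0.73, limma adjusted p = 0.316). In T47D-PA5 over T47D-VC1 1 of the 14 was called, PSMB9 at 1.23 (limma adjusted p = 0.0142), beside 1.35% of genes called higher. In T47D-PA6 over T47D-PA5 5 were called higher and 0 lower, beside 3.62% of genes higher and 6.04% lower.

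Of 13 genes for the transcription of class I genes, 12 were tested, and 3 were called higher and 2 lower in T47D-PA6 over T47D-VC1, beside the 4.74% and 5.39% of all genes. The 3 that rose belong to interferon signalling, namely IRF9 at 3.16 (limma adjusted p = 0.00052), IRF1 at 1.48 (limma adjusted p = 0.00835) and STAT2 at 1.23 (limma adjusted p = 0.00746). The 2 that fell are subunits of the factors with which NLRC5 works on class I promoters, NFYA at −0.79 (limma adjusted p = 0.0408) and RFXAP at −0.50 (limma adjusted p = 0.0299). Their partners RFX5 (−0.33), RFXANK (−0.04), NFYB (−0.08) and NFYC (0.04) were not called. In T47D-PA5 over T47D-VC1 1 of the 12 was called higher and 0 lower, beside 1.35% of genes called higher. It was IRF9, at 1.99 (limma adjusted p = 0.00874), so the rise of IRF9 was not confined to T47D-PA6. In T47D-PA6 over T47D-PA5 3 were called higher and 1 lower, RFX5 at −0.74 (limma adjusted p = 0.0135), beside the 3.62% and 6.04% of all genes.

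Class I-like proteins, which share the fold but lie outside the classical cluster or serve other tasks, formed the next list. Of 14 listed, 10 were tested, and in T47D-PA6 over T47D-VC1 0 were called higher and 1 lower, HFE, which limits iron uptake, at −0.83 (limma adjusted p = 0.0285), and with 5.39% of all genes called lower 1 of 10 is not set apart from them. The stress ligands MICA and MICB differed by 0.31 and 0.13 and were not called. In T47D-PA6 over T47D-PA5 1 was called lower, MR1, which presents vitamin metabolites, at −0.98 (limma adjusted p = 0.033). With 6.04% of all genes called lower there, 1 of 10 is again not set apart from them. Of the pseudogenes and neighbouring transcripts of the class I region 3 were tested, and 2 were called higher beside 4.74% of all genes, HLA-J at 1.79 (limma adjusted p = 0.0113) and HCP5 at 1.67 (limma adjusted p = 0.0019).

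**Figure D5:**
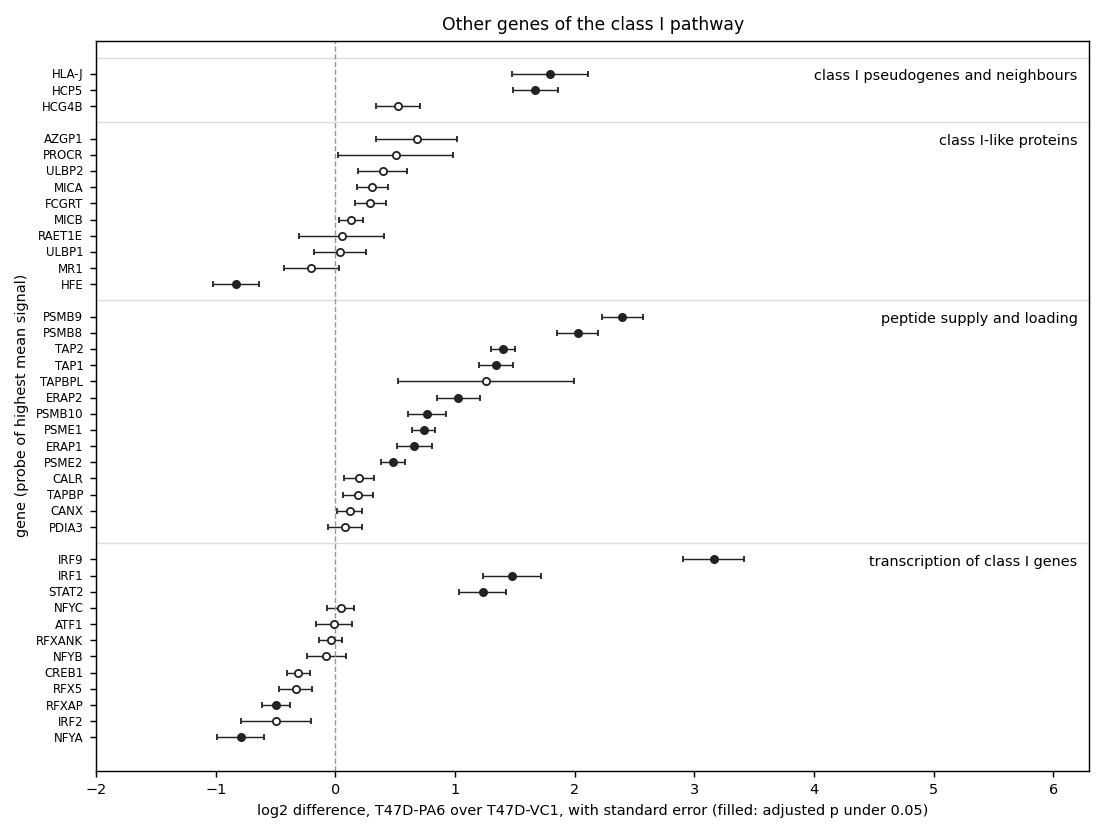
Log2 difference of T47D-PA6 over T47D-VC1 with its standard error for the tested genes of the 4 lists, 1 probe a gene, filled where the adjusted p was under 0.05. In the peptide supply list 9 of 14 genes are filled and to the right of 0, and in the class I-like list only HFE is filled, at −0.83.

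For the brightest probe of each member, the genes of most similar pattern were found by the root mean square difference, over the 9 arrays, of log2 signal relative to the gene's own mean in T47D-VC1. B2M lay closest to IRF1 (0.14), then OLIG1 (0.17) and CBLN3 (0.19). The second HLA-B tail probe lay closest to UNC93B1 (0.09), PML (0.11) and ZNFX1 (0.13), and the HLA-C-named probe at the same stretch to UNC93B1 (0.12), PML (0.12) and STAT2 (0.14). HLA-G lay closest to the pseudogene HLA-J (0.11), and HLA-F to BST2 (0.17), IFIH1 (0.22) and HLA-J (0.24). The upstream NLRC5 probe lay closest to TNFRSF14 (0.12), MDK (0.13) and CCDC88B (0.14). The brightest HLA-E probe is the distal one, and its nearest genes RRP7BP (0.08), CD4 (0.09) and SLC16A12 (0.10) had differences of −0.10, 0.02 and 0.03 in T47D-PA6 over T47D-VC1.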

How the data were processed

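The authors deposited, for each of the 9 arrays, the intensity that Agilent Feature Extraction gave for each spot, background-subtracted and not normalized between arrays. The submitters' processing notes name version 9.5.1.1 and the file headers 10.7.1.1. A deposited table of intensities that the authors had quantile-normalized was used as an alternative. Spots marked as outliers (46 to 117 an array) were dropped, spots of a probe averaged on the log2 scale, and arrays quantile-normalized. A probe entered the fit if the scanner software marked it as well above background on all 3 arrays of any line. Another 16 probes were dropped because all their spots were outliers on an array.

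One limma 3.58.1 fit (R 4.3.3, lmFit and eBayes) over 9 arrays gave a mean per line, with 6 residual degrees of freedom, for probes and for same-gene pairs. The fits were tested on simulated data. The number of arrays limits the precision. Where a line was below background on all arrays, a fold is a bound. Named genes were all probes of the members, 4 pathway lists and the 3 genes most alike. Members and lists were chosen with earlier results of these data known. Results for some genes and sequences are not reported here. Alternatives tried were a 75th percentile shift, normexp with an offset of 50, the authors' table, other filters, slide and replicate blocks, leaving out each array, an intensity trend, the methods' unpaired test, 2 lines alone, 1 probe per gene and the later scan run alone.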

Additional observations from a re-analysis of the deposited data

How the results depend on the processing

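Unless stated, probe counts here cover the probes above background on all 9 arrays, which leaves out the downstream NLRC5 probe. Pair counts cover all 7 pairs, and the 1 pair called at the start is that of NLRC5, which holds the probe below background in 2 lines. With no filter on dim probes, the pairs called in T47D-PA6 over T47D-VC1 fell from 1 to 0. The probes called fell from 1 to 0 in T47D-PA5 over T47D-VC1 and from 9 to 4 in T47D-PA6 over T47D-PA5. With the filter at all 9 arrays, which leaves out the downstream NLRC5 probe, the pairs in T47D-PA6 over T47D-VC1 were 0. With slide as a block, the pairs in T47D-PA6 over T47D-VC1 were 4, the probes in T47D-PA5 over T47D-VC1 were 2 and the pairs in T47D-PA6 over T47D-PA5 were 1. The methods' unpaired test, adjusted over all probes, called 6, 0 and 0 probes in T47D-PA6 over T47D-VC1, T47D-PA5 over T47D-VC1 and T47D-PA6 over T47D-PA5. With the 2 compared lines alone, T47D-PA5 over T47D-VC1 had 0 probes called and T47D-PA6 over T47D-PA5 had 5. With 1 probe per gene, which leaves 7 members, the counts were 6, 0 and 4. The later scan run alone, added after seeing the data, gave 10 probes in T47D-PA5 over T47D-VC1, or 11 with the downstream NLRC5 probe counted. In that setting 4 pairs were called in T47D-PA6 over T47D-VC1 and 3 in T47D-PA6 over T47D-PA5.

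Leaving out each array in turn gave 9 to 11 probes in T47D-PA6 over T47D-VC1 and 0 to 1 in T47D-PA5 over T47D-VC1. In T47D-PA6 over T47D-PA5 it gave 1 to 9. With the downstream NLRC5 probe counted, the ranges were 10 to 12, 0 to 1 and 1 to 10 in the same order. The pairs called were 0 to 4, 0 to 1 and 0 to 1 in that order. Of 1173 alternative values of single probes and pairs, the downstream NLRC5 probe included, 1037 kept their side of the threshold. Another 95 lost it, 41 gained it and 0 called values changed sign. The cause of these moves was not tested.

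The replicate numbers do not pair the arrays by the labels: deviations of arrays with the same number correlated at 0.0793 to 0.326, and 5 of 9 arrays correlated best with their own number. With the replicate block the pairs called in T47D-PA6 over T47D-VC1 were 4, the probes in T47D-PA5 over T47D-VC1 were 2 and the pairs in T47D-PA6 over T47D-PA5 were 1.

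Dim signal limits NLRC5, whose downstream probe differed by 0.58 in T47D-PA6 over T47D-VC1 under normexp, with an offset of 50 added to every signal.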
